A study of Mus musculus with 3 samples.

Results

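Hlf and Mecom, 2 of the 125 genes with a molecule in these libraries, were followed through mouse bone marrow (BM). They were taken by symbol from every file, and their molecules were summed for each cell. Both encode nuclear regulators of haematopoietic stem cells. Hlf is a transcription factor of the PAR bZIP family that marks long-term stem cells and early progenitors. Mecom, also called Evi1, is a zinc finger transcription factor needed for stem cell maintenance, and one of its products carries a PR domain at its start. Mecom is also expressed in endothelium, so it can be read in blood and in vessel cells of the same marrow.

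The study measured Wnt signalling genes and cell type markers by targeted single-cell RNA sequencing of wild type C57/B6 mice. There was 1 library for each of 3 groups. E18.5 EC, here the sorted library, held endothelial cells (ECs) that were flow-sorted out of E18.5 bone marrow. Its gate is CD31 with endomucin in the description of the series and CD31 alone in the methods, and arterial ECs are low in endomucin. E18.5 BM cells, here fetal marrow, held the cells left after mature blood cells were depleted with lineage antibodies, as did Adult BM cells, here adult marrow. The methods describe further depletion of adult marrow, including CD117 and CD45, for other libraries and do not state it for the adult library used here. The adult age is not given in the sources used here. Each library pooled several animals, so there are no replicates, no test across samples was possible, and the intervals, all at 95%, cover counting error only.

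The libraries held 4043, 12884 and 7948 cell barcodes in the order above. Median molecules per kept cell were 83, 97 and 242. Between libraries, 207 barcodes were shared, and leaving them out moved no recomputed value beyond its interval. A Ptprc cell is a cell with at least 2 molecules of Ptprc, which encodes the pan-blood protein CD45. Other cells were classed as endothelial, mesenchymal, chondrocyte or mural by their markers. This gave 958, 9209 and 1324 Ptprc cells and 2847, 504 and 1977 ECs in that order. In the sorted library 35.8% of Ptprc cells had at least 2 endothelial markers other than Pecam1. The share was 11.3% in fetal and 8.08% in adult marrow. These markers include Ecm1 and Stab1, with 5493 and 2263 molecules in the sorted-library Ptprc cells that had no Hlf. Vwf and Kdr had 185 and 126 there, so the share does not by itself measure vessel transcripts. Molecules are counts of unique molecular identifiers after error correction.

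Each gene was read by 1 amplicon near the 3′ end of a transcript. The Hlf amplicon was that of ENSMUST00000004051.7, a transcript of 4 exons on the minus strand at chr11:90336536-90390895 (GRCm38). The Mecom amplicon was that of ENSMUST00000173495.7, a transcript of 16 exons on the minus strand at chr3:29951299-30509733. Of 17 annotated Mecom transcripts, 4 ended within 20 bases of it, and their start sites lay between 30013156 and 30509733. The Mecom counts therefore sum transcripts of distant promoters, and products with and without the PR domain cannot be told apart in them. Start regions of both genes are shown on the minus strand of GRCm38.p6. They run from 250 bases before to 50 bases after a RefSeq start site. Of the 4 Mecom transcripts, those that start at 30140423 and 30013505 begin outside the regions shown. Capitals mark the cAMP response element TGACGTCA and the E-box CACCTG.
Hlf, chr11:90390868-90391167: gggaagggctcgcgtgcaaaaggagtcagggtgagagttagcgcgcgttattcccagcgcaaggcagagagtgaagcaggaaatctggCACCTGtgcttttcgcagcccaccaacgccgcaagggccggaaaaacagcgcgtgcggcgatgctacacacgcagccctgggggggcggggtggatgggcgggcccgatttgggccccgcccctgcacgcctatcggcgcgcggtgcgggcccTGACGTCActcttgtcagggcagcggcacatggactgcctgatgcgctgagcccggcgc
Mecom distal start, chr3:30509710-30510009: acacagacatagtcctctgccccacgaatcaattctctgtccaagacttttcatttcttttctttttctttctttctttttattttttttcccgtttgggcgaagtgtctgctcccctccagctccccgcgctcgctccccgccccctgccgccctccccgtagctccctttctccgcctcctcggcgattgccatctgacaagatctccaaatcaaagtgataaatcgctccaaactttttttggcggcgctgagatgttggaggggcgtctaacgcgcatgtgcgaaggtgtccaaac
Mecom proximal start, chr3:30013155-30013454: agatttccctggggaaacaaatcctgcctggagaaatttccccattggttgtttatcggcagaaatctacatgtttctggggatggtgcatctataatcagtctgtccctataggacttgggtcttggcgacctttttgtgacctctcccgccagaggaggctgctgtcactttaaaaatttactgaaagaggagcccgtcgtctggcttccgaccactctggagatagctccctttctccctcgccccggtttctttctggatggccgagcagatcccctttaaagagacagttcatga
The cAMP response element was found in 1.79% and the E-box, read on both strands, in 20.2% of 32851 start regions of this length. The GATA motif AGATAA was in neither strand of these windows and in 11.2% of all start regions. The ETS motif CCGGAAG was likewise not found here and was in 8.86% of them. The PAR bZIP motif TTANGTAA was not found here either and was in 2.32%. A match is a description of letters only.

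Hlf was largely a transcript of Ptprc cells. Its level there was 4.46 molecules per 10000 panel molecules (3.45–5.66) in the sorted library, 32.3 (31.2–33.3) in fetal marrow and 33.3 (30.9–35.9) in adult marrow. The levels of both marrow libraries overlapped within counting error, and that of the sorted library was far lower. Ptprc cells held 95.7%, 90.0% and 70.0% of all Hlf molecules of these libraries. In ECs the Hlf level was 0.0788 (0.00954–0.285), 3.16 (1.81–5.13) and 0.746 (0.552–0.986) per 10000. Hlf was thus at least 2-fold higher in Ptprc cells than in ECs in each library, as were 31.2%, 34.7% and 41.2% of the targets compared in the sorted, fetal and adult libraries. ECs with no Ptprc molecule at all had Hlf levels of 0.0403, 0.993 and 0.652. No Hlf molecule was found in the 334 arterial-like ECs of the sorted library, marked by at least 2 molecules of the gap junction gene Gja4, which allows a level of up to 0.673.

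Outside Ptprc cells and ECs the next highest Hlf levels were those of unassigned cells, at 15.9 (14.2–17.7) in fetal marrow and 4.65 (3.8–5.62) in adult marrow. Mesenchymal cells had 2.44 (1.87–3.12) and 0.343 (0.280–0.416) per 10000, and adult chondrocytes 0.0725 (0.0396–0.122). Hlf was in 16.1% of fetal Ptprc cells at a median of 93 molecules and in 5.42% of fetal mesenchymal cells at 235.5, and in 24.6% and 3.08% of such adult cells at 97 and 420. At low counts Hlf followed Ptprc. In fetal marrow its level was 3.44 with 0 Ptprc molecules, 14.7 with 1, 26.3 with 2 and 38.5 with 3 to 4, and it was 23.5 with 10 or more. In adult marrow it was 0.347, 9.51, 27.9 and 34.7 over the same first bins and 14.2 with 10 or more. In both libraries the cells with the most Ptprc were below those with 3 to 4 molecules.

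**Figure D1:**
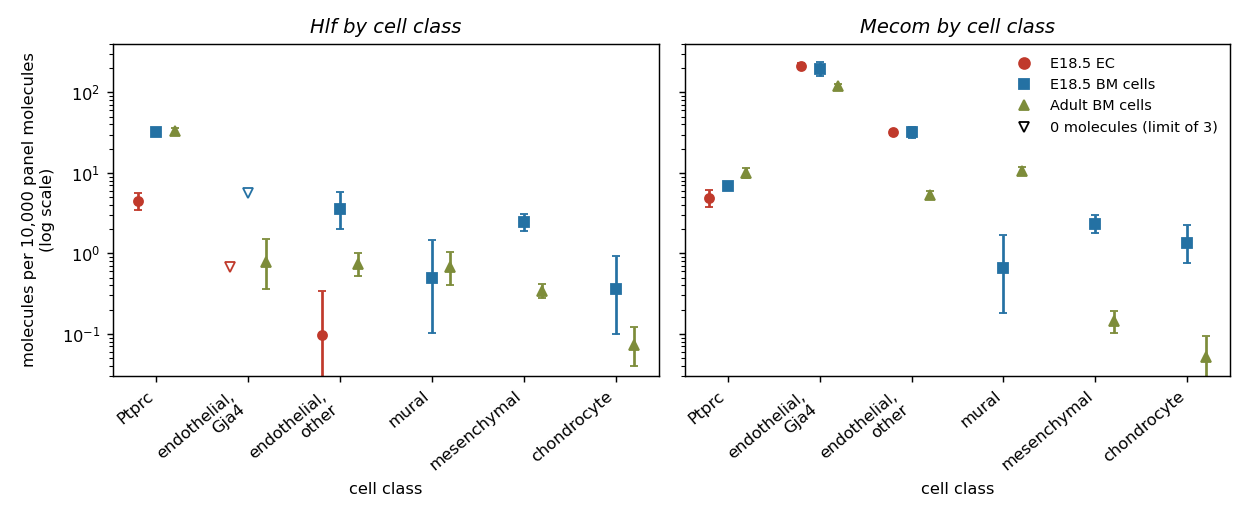
Level of Hlf (left) and Mecom (right) in each cell class, in molecules per 10,000 panel molecules on a log axis, with points for the 3 libraries and exact 95% Poisson intervals of counting error. Open triangles mark classes with 0 molecules, drawn at the level of 3 molecules, and classes of under 50 cells are left out except ECs with Gja4, as are unassigned cells, and bars that reach the lower edge go on below it. Hlf is highest in Ptprc cells of both marrow libraries, at 32.3 and 33.3, and Mecom in ECs with Gja4, from 119 to 215.

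Mecom had the opposite order. Its level in ECs was 64.3 (61.2–67.5) per 10000 in the sorted library, 49.4 (43.4–55.9) in fetal marrow and 25.2 (24.0–26.4) in adult marrow. In Ptprc cells it was 4.86 (3.81–6.10), 6.93 (6.45–7.42) and 9.88 (8.57–11.3). It was at least 2-fold lower in Ptprc cells than in ECs in each library, as were 41.2%, 32.7% and 35.1% of targets. Ptprc cells still held 65.0% of the Mecom molecules of fetal marrow, where they were the most numerous class, against 8.89% in adult marrow and 3.97% in the sorted library. Mesenchymal cells had 2.32 (1.77–2.99) per 10000 in fetal marrow and 0.143 (0.104–0.193) in adult marrow, and adult chondrocytes 0.0518 (0.0248–0.0952). The adult mural class had 10.6 (9.46–11.9), which overlapped adult Ptprc cells. Within that class, 173 cells with at least 2 molecules of Pecam1, which encodes the endothelial protein CD31, had 28.8 (25.6–32.3), and the other 370 had 0.334 (0.123–0.727). Mecom in the mural class thus lay almost wholly in cells that also held Pecam1. By share of cells, fetal Ptprc cells had Mecom in 5.17% at a median of 93 molecules, no more than mesenchymal cells with 5.98% at 235.5, so that share alone cannot be read as expression. With each cell thinned at random to 50 molecules, the shares were 3.41% (3.01–3.85) and 0.940% (0.407–1.84).

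The question of overlap is whether blood cells that hold one of these stem cell regulators also hold the other. In fetal marrow, 1480 Ptprc cells had Hlf and 476 had Mecom, and 357 had both. In adult marrow, 326 had Hlf, 138 had Mecom and 88 had both. Mecom was found in 24.1% (22–26.4) of fetal Hlf cells and in 1.54% (1.28–1.84) of other Ptprc cells. In adult marrow the shares were 27.0% (22.3–32.2) and 5.01% (3.74–6.55). Mecom cells were largely contained within Hlf cells, while most Hlf cells had no Mecom molecule. Of Mecom cells, 75.0% in fetal marrow and 63.8% in adult marrow had Hlf. Cells with both genes had a median of 95 molecules in fetal and 76 in adult marrow, against 91 and 103 in cells with neither. They were thus shallower in adult marrow only.

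At equal depth, with every cell thinned at random to 50 molecules, Mecom was in 19.1% (16.5–21.9) of 869 fetal Hlf cells and in 1.35% (1.08–1.65) of other Ptprc cells, a ratio of 14.2 (11.1–18.2). Over 20 random thinnings this ratio ran from 12 to 18.2, with a median of 15.7. In adult marrow the shares were 23.0% (17.5–29.2) of 213 cells and 2.92% (1.99–4.12), a ratio of 7.87 (5.15–12). Over the thinnings that ratio ran from 4.46 to 8.11, with a median of 6.02. In this and later comparisons at equal depth, cells with and without Hlf or Mecom were told apart after thinning. Of Hlf cells deep enough to thin, 869 of 1295 fetal and 213 of 307 adult ones kept Hlf. The rest counted among the other Ptprc cells. Shares at least 2-fold higher in Hlf cells were seen for 12.7% of targets in fetal marrow and 15% in adult marrow. Mecom ranked 1 by this ratio in each library, of 79 and 60 targets. With RSEC-adjusted molecules, a less strict correction, the ratios were 5.77 (4.78–6.96) and 3.66 (2.45–5.48). The fetal share in cells without Hlf after thinning, 1.35%, overlapped that of mesenchymal cells thinned in the same way, 0.940% (0.407–1.84). It cannot be told apart from the share in that class. The adult share of 2.92% was above that of adult mesenchymal cells, 0.350% (0.168–0.643).

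The overlap grew with the count. In fetal marrow the share of Ptprc cells with Mecom was 1.54% with 0 Hlf molecules, 12.6% with 1, 25.9% with 2, 29.6% with 3 and 43.1% with 4 or more. In adult marrow it was 5.01%, 20.6%, 25.4%, 32.4% and 48.9%. The adult intervals at 2 and 3 Hlf molecules overlapped, at 15.5–37.5% of 67 cells and 18.0–49.8% of 37 cells. Median depth in fetal marrow was 91 molecules with 0 Hlf molecules and from 94 to 109 in the other bins. In adult marrow it fell from 102 to 70, so there the deeper cells were not those with more Hlf. Read the other way, Hlf was in 12.9% of fetal Ptprc cells with 0 Mecom molecules, 68.1% with 1, 84.1% with 2 and 93.5% with 3 or more. The adult shares were 20.1%, 55.7%, 86.7% and 94.1%. The last of these were 13 of 15 cells (59.5–98.3) and 16 of 17 cells (71.3–99.9). Most cells with 2 or more Mecom molecules were therefore Hlf cells in both marrow libraries, though such cells were few in adult marrow.

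**Figure D2:**
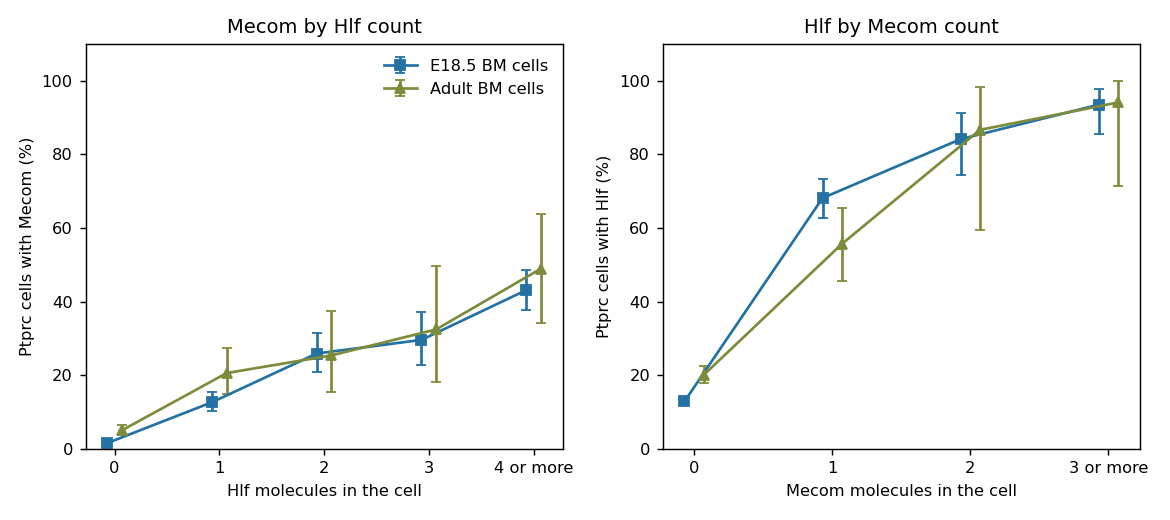
Share of Ptprc cells with Mecom by the number of Hlf molecules in the cell (left) and share with Hlf by the number of Mecom molecules (right), in percent with exact 95% binomial intervals of counting error, with squares for E18.5 BM cells and triangles for Adult BM cells. Both curves climb in both libraries, to 43.1% and 48.9% with Mecom at 4 or more Hlf molecules and to 93.5% and 94.1% with Hlf at 3 or more Mecom molecules.

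The library of sorted ECs had few such cells. Of its 958 Ptprc cells, 44 had Hlf, 25 had Mecom and 6 had both. Mecom was in 13.6% (5.17–27.4) of its Hlf cells and 2.08% (1.26–3.23) of the others, and at equal depth the ratio of 27.7 rested on 4 cells with both genes. Hlf cells of this library were deeper, with a median of 247 molecules at 1 Hlf molecule against 121 at 0, and after thinning 18 cells still held Hlf. Over the thinnings the ratio ran from 10.6 to 50.2. Shares at least 2-fold higher were seen for 9.52% of 42 targets. The cells with Mecom and no Hlf stood apart in this library, as 16 of 19, or 84.2% (60.4–96.6), had at least 2 endothelial markers other than Pecam1. The share was 20.2% (13.4–28.5) of 119 such cells in fetal marrow and 12% (4.53–24.3) of 50 in adult marrow. In adult marrow the cells with both genes had the higher share, 25.0% (16.4–35.4) against 8.08% of all Ptprc cells. The markers counted include Hey1, which was higher in adult Hlf cells, as given below. That share therefore does not by itself measure vessel transcripts. Without Ptprc cells that had 2 or more endothelial markers, the Mecom level of the sorted library was 2.98 (1.95–4.37) in place of 4.86. The part of mixed or doublet cells in these values was not tested.

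Hlf cells were compared with the other Ptprc cells of their library for the rest of the panel. In fetal marrow, 19.2% of 99 targets had a level at least 2-fold higher in Hlf cells and 19.2% at least 2-fold lower. In adult marrow the values were 25.3% and 20.7% of 87, and in the sorted library 16.7% and 36.7% of 60. At equal depth 21.4%, 20.3% and 11.7% had a share at least 2-fold lower in the sorted, fetal and adult libraries. Single cells held most molecules of several matrix and contractile genes. Of 260 molecules of the smooth muscle gene Tagln in adult Hlf cells, 250 were in 1 cell, and of 1116 molecules of the collagenase gene Mmp13 in fetal Hlf cells, 592 were.

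Frizzled genes, which encode receptors of Wnt ligands, were among the targets higher in Hlf cells. Of 10 Wnt receptor genes measured in fetal Ptprc cells, 4 were at least 2-fold higher in Hlf cells and none lower, with a median ratio of 1.64 against 1.28 over all targets. In adult marrow 3 of 6 were higher and none lower, with medians of 2.29 and 1.13. Fzd9 was 3.72-fold (3.31–4.18) higher in fetal Hlf cells, and 16.6% against 4.55% of cells had it at equal depth. Its adult level was 21.9 against 7.35 per 10000, and it was in 11.7% and 5.56% of thinned cells. Fzd3 was higher by 3.69-fold (2.79–4.85) and 5.92-fold (2.88–12.4), and Fzd6 by 1.74-fold (1.52–1.99) and 2.97-fold (2.27–3.88), in fetal and adult Hlf cells. At equal depth Fzd3 was in 3.11% against 0.908% of fetal and 4.23% against 0.943% of adult cells. Fzd6 was in 10.4% against 5.10% and in 16.9% against 7.26%. Lgr4, a receptor of R-spondins, had ratios of 1.04 (0.920–1.18) and 1.05 (0.592–1.78), and its thinned shares were 7.94% against 6.94% and 0.939% against 2.73%. In the sorted library 2 of 5 members were at least 2-fold higher, Fzd9 by 7.09-fold (3.20–15.0) and Fzd6 by 2.60-fold (1.42–4.49). At equal depth these rested on 1 and 2 of 18 Hlf cells. Of the other members there, Lgr4 had a ratio of 1.81 (0.868–3.42), Fzd7 1.11 (0.704–1.66) and Fzd5 0.613 (0.276–1.19).

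Of the Wnt target genes, Myc was higher in Hlf cells, by 2.19-fold (2.15–2.22) in fetal marrow, 1.92-fold (1.84–1.99) in adult marrow and 3.65-fold (3.35–3.97) in the sorted library. Its share ratios at equal depth were smaller, 1.47 (1.42–1.52), 1.28 (1.18–1.38) and 1.91 (1.36–2.68). Ccnd1, the gene of cyclin D1, was higher by 1.61-fold (1.56–1.66) and 1.87-fold (1.66–2.10) in fetal and adult marrow, with share ratios of 1.89 (1.8–1.99) and 1.53 (1.26–1.86). In the sorted library its level ratio was 1.16 (0.989–1.35), and it was in 22.2% against 28.7% of thinned cells. Lef1, the gene of a transcription factor of Wnt signalling that is also abundant in early lymphocytes, was lower, at 18.0 against 106 per 10000 in fetal and 0.268 against 9.46 in adult marrow. The adult value rested on 1 molecule in Hlf cells. At equal depth Lef1 was in 3.34% against 20.6% of fetal cells. The Wnt targets named here thus differed in direction.

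Markers of osteoclasts and granulocytes were low in Hlf cells. In fetal marrow 4 of 4 measured members were at least 2-fold lower, with a median ratio of 0.0587. Acp5, the osteoclast acid phosphatase, was at 74.6 against 773 per 10000, and Mmp9, a matrix protease of granulocytes and osteoclasts, at 4.37 against 75.0. At equal depth the differences were 20.5% against 43.2% of cells for Acp5 and 0.806% against 6.81% for Mmp9. In the sorted library 4 of 4 were lower by level, while Mmp9 was in 5.56% against 4.81% of thinned cells. Of the 2 members measured in adult marrow 1 was lower by level. Adult Hlf cells had 0 Mmp9 molecules against 644 in the other Ptprc cells, and at equal depth Acp5 was in 0.939% against 7.35%.

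Cell cycle genes gave different values at each stage. At equal depth Mki67, the gene of the proliferation marker Ki-67, was in 71.3% of fetal Hlf cells and 62.7% of the other Ptprc cells, a ratio of 1.14 (1.09–1.19). In adult marrow it was in 29.1% and 47.0%, a ratio of 0.619 (0.497–0.771). Cdk1, the kinase of mitotic entry, had ratios of 1.29 (1.24–1.34) and 0.634 (0.513–0.783), and Top2a, a topoisomerase of dividing cells, 1.25 (1.21–1.30) and 0.714 (0.598–0.852). Ccne1, the gene of cyclin E1, had 1.20 (1.11–1.31) and 0.507 (0.315–0.817). Ccnd1, also on this list, is given above with the Wnt targets and was higher in Hlf cells of both marrow libraries. By level, 0 of 5 members passed 2-fold in fetal Hlf cells, 1 of 5, Ccne1, was lower in adult ones and 1 of 5, Cdk1, was higher in the sorted library. The difference between stages was not tested, since each stage is 1 library and its other Ptprc cells differ in kind. Hey1, a Notch target, was at 35.6 per 10000 in adult Hlf cells and 3.19 in the others, and in 16.0% and 2.17% of thinned cells. In fetal marrow it was at 14.2 and 5.89, and in 4.83% and 1.71% of thinned cells.

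Mecom cells were compared in the same way. In fetal marrow 49.5% of targets had a level at least 2-fold higher in Mecom cells and 13.1% at least 2-fold lower. The values were 26.4% and 29.9% in adult marrow, and 31.7% and 20% in the sorted library. Shares at equal depth were at least 2-fold higher for 21.4%, 24.1% and 13.3% of targets in the sorted, fetal and adult libraries. Hlf was 9.47-fold (8.84–10.1) higher in fetal, 3.40-fold (2.88–3.99) in adult and 11.6-fold (6.46–20.2) in sorted-library Mecom cells. Fzd9 was higher by 3.11-fold (2.63–3.66) in fetal Mecom cells, while its adult level ratio was 1.12 (0.732–1.65) and its ratio at equal depth 2.02 (1.08–3.75). Of the stem cell list of 30 genes, Vwf was the only other member measured with enough molecules. Vwf, the gene of von Willebrand factor, marks platelet-primed stem cells and endothelium. It was 4.34-fold (3.29–5.65) higher in fetal Mecom cells and had a ratio of 1.02 (0.758–1.36) in fetal Hlf cells. In the sorted library the ratios were 14 (10.4–18.7) in Mecom cells, with 33 of 71 molecules in 1 cell, and 2.46 (1.66–3.54) in Hlf cells, with 22 of 35 in 1 cell. In adult marrow they were below 1, at 0.607 (0.449–0.806) and 0.425 (0.315–0.562), while the share ratios at equal depth were 1.66 (0.736–3.74) and 1.52 (0.849–2.71). Vwf thus differed in direction between the libraries by level. The Vwf level was 18.4 per 10000 in fetal cells with Mecom alone, 9.23 in cells with both genes, 1.54 with Hlf alone and 2.94 with neither. Of the cells with Mecom alone, 20.2% had at least 2 endothelial markers other than Pecam1. Vwf is itself among these markers, so that share is not independent of the Vwf level. Kit, the gene of CD117, had 1 molecule in each marrow library, so it could not be used.

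In ECs the question was whether Mecom followed the arterial marker Gja4. The level of Mecom in ECs with Gja4 was 215 (202–230) per 10000 in the sorted library, 198 (162–239) in fetal marrow and 119 (113–126) in adult marrow. In the other ECs it was 32.1 (29.7–34.6), 31.8 (26.8–37.4) and 5.33 (4.73–5.98). The fetal libraries overlapped within counting error in both kinds of EC, although one was sorted and the other was not. The ratios were 6.72 (6.08–7.42), 6.22 (4.80–8.05) and 22.3 (19.7–25.4), beside 23.1%, 15.3% and 32.3% of targets that were at least 2-fold higher. Mecom ranked 8, 5 and 2 among targets by this ratio. At equal depth Mecom was in 54.7% (49.0–60.4) against 14.2% (12.6–15.9), 53.8% (37.2–69.9) against 11.9% (8.78–15.6) and 40.4% (36.3–44.6) against 8.53% (7.08–10.2) of thinned cells. Such shares were at least 2-fold higher for 14.5%, 15.6% and 13% of targets.

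Mecom climbed step by step with the Gja4 count. In the sorted library its level was 30.4 per 10000 with 0 Gja4 molecules, 64.8 with 1, 119 with 2 to 4, 228 with 5 to 9 and 259 with 10 or more. In adult marrow it was 4.38, 35, 64.8, 97.1 and 149.8. Of ECs with 10 or more Gja4 molecules, 91.0% in the sorted library and 89.0% in adult marrow had Mecom. In fetal marrow the bins held 12 to 20 cells above 0 molecules, and the levels were 28.7, 108, 74.5, 377 and 204, so no order among the upper bins can be read there. Deeper cells held more Gja4, with medians from 70 to 156.5 molecules in the sorted library and from 111 to 223 in adult marrow. The adult ratio moved with the definition. It was 7.04 when each cell had equal weight and 38.1 (31.7–46.0) without ECs that held Ptprc or at least 5% mesenchymal, chondrocyte and mural molecules. With at least 2 arterial markers in place of Gja4 the ratios were 3.77, 3.55 and 10.03. Other genes of the arterial list were at least 2-fold higher by level in ECs with Gja4. They were 4 of 5, 4 of 5 and 5 of 5 in the sorted, fetal and adult libraries. Of the cell cycle genes, 5 of 5, 4 of 5 and 4 of 5 were at least 2-fold lower, with median ratios of 0.243, 0.117 and 0.165. Of all targets compared, 24.6%, 47.5% and 29% were at least 2-fold lower.

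**Figure D3:**
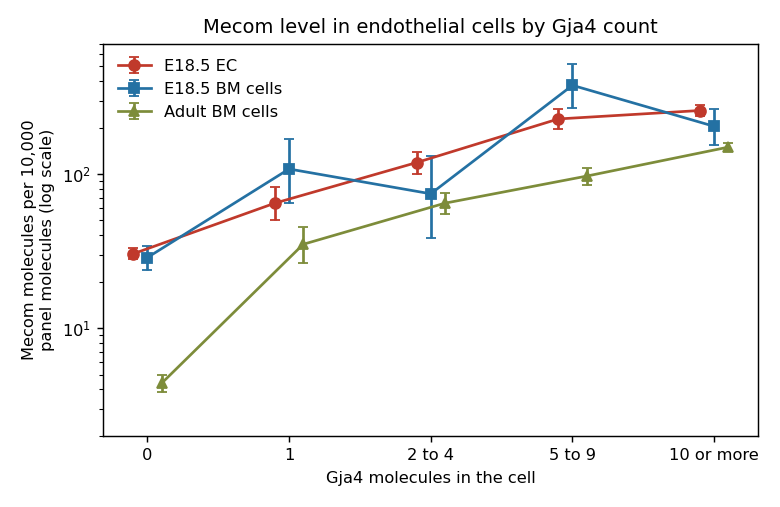
Mecom level in ECs, in molecules per 10,000 panel molecules on a log axis, by the number of Gja4 molecules in the cell, with exact 95% Poisson intervals of counting error, for the 3 libraries. The level climbs at each step from 30.4 to 259 in E18.5 EC and from 4.38 to 149.8 in Adult BM cells, while the intervals of E18.5 BM cells are wide.

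Levels across cell classes were also compared between targets. Over 17 groups of at least 50 cells, each a class of a library, the levels most like that of Mecom were those of Fzd6 (Spearman rho 0.949), Sema3g (0.931), an arterial semaphorin, and Pecam1 (0.914). Those most like Hlf were Srgn (0.792), the gene of the blood cell proteoglycan serglycin, Ptprc (0.779) and S100a4 (0.738). Hlf and Mecom themselves had a rho of 0.0613 over these groups. The groups share libraries, and Ptprc, Pecam1 and Sema3g were themselves used to set the classes. The likeness to those targets is thus partly set by how the groups were made, and these are descriptions. The pair was thus found together cell by cell among Ptprc cells, while cell classes with more Hlf were not those with more Mecom.

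The fetal to adult contrast in Ptprc cells was made at equal depth. Hlf was in 11.6% (10.9–12.4) of 7480 fetal and 16.7% (14.7–18.9) of 1274 adult cells thinned to 50 molecules, a ratio of 0.695 (0.606–0.797). Mecom was in 3.41% (3.01–3.85) and 6.28% (5.01–7.75), a ratio of 0.543 (0.425–0.693). Shares at least 2-fold lower in fetal cells were seen for 36.4% of 88 targets and at least 2-fold higher for 21.6%, and neither gene passed that fold. Over 20 thinnings the ratios ran from 0.638 to 0.745 and from 0.511 to 0.637. As a background, thinned mesenchymal cells had Hlf in 1.41% and 0.350% of fetal and adult cells.

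The Hlf difference depended on the setting. Thinned to 30 molecules, Hlf was in 8.97% of fetal and 13.4% of adult cells, and with equal weight per cell its levels were 48.3 and 66.0 per 10000. Thinned to 100 molecules, which left 4223 fetal and 638 adult cells, Hlf was in 14.1% and 14.3%, a ratio of 0.989 (0.807–1.21). By level it was 0.968 (0.892–1.05), and with RSEC-adjusted molecules, which are corrected less strictly, 0.949 (0.819–1.10). Adult Hlf cells were shallower than other adult Ptprc cells, with medians of 95, 80, 73 and 70 molecules at 1, 2, 3 and 4 or more Hlf molecules against 102. The Mecom ratio was 0.701 (0.501–0.981) at 100 molecules and 0.701 (0.600–0.822) by level. Levels at least 2-fold lower were seen for 34% of targets and at least 2-fold higher for 21.4%. The Ptprc cells compared also differed in other ways. All 4 osteoclast and granulocyte genes were at least 2-fold higher in fetal Ptprc cells, with a median ratio of 73.2, and mesenchymal markers summed to 411 per 10000 in fetal and 1808 in adult Ptprc cells. Without Ptprc cells that held at least 5 osteoclast or granulocyte molecules the ratios were 0.782 (0.682–0.897) for Hlf and 0.605 (0.474–0.772) for Mecom. Stage, depletion and library cannot be told apart.

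In ECs, Mecom was higher in fetal than in adult cells within both kinds of EC. In ECs with Gja4 its level was 215 in the sorted library and 119 in adult marrow, a ratio of 1.81 (1.66–1.97), and at equal depth it was in 54.7% and 40.4% of cells, a ratio of 1.35 (1.17–1.56). In the other ECs the levels were 32.1 and 5.33, and the thinned shares 14.2% and 8.53%, a ratio of 1.67 (1.35–2.05). The thinned ratios ran from 1.15 to 1.43 and from 1.63 to 2 over 20 thinnings. Levels at least 2-fold higher in the fetal library were seen for 25.3% of targets in ECs with Gja4 and 45.8% in the others, and thinned shares for 23.7% and 24.4%. ECs with Gja4 made up 11.7% (10.6–13.0) of ECs in the sorted library and 28.0% (26.1–30.1) in adult marrow. Over all ECs the thinned shares were closer, 20.02% (18.3–21.8) and 17.8% (16.1–19.6), a ratio of 1.13 (0.990–1.28), while 20.9% of targets were at least 2-fold higher by share and 42.3% by level. Without thinning that ratio was 0.840 (0.767–0.920), and the adult ECs were deeper, with a median of 125 molecules against 74. The endothelial markers, of which 11 of 23 were measured, summed to 5400 per 10000 in fetal and 3313 in adult ECs with Gja4, and to 4776 and 1207 in the other ECs. In ECs with Gja4, mesenchymal markers were at 438 and 1526, haematopoietic markers at 86.1 and 566 and mural markers at 5.38 and 221. In the other ECs these were at 69.9 and 590, 157 and 422, and 1.43 and 49.7. The haematopoietic list had 2 measured members. Srgn alone was at 85.4 in ECs with Gja4 of the sorted library and at 154 in its other ECs. Cxcl12 was at 399 in ECs with Gja4 of that library. The paper reports Cxcl12 transcripts in embryonic arterial ECs. The fetal haematopoietic and mesenchymal sums therefore do not by themselves measure blood or stromal content of ECs. The adult sums were not split by gene here, and the source of either was not tested. Without ECs that held Ptprc or at least 5% mesenchymal, chondrocyte and mural molecules, 303 of 554 adult ECs with Gja4 and 725 of 1423 others were kept, and the thinned Mecom ratios were 1.34 (1.13–1.59) and 1.92 (1.44–2.56). The gate of the sorted library, the stage and the library cannot be told apart.

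**Figure D4:**
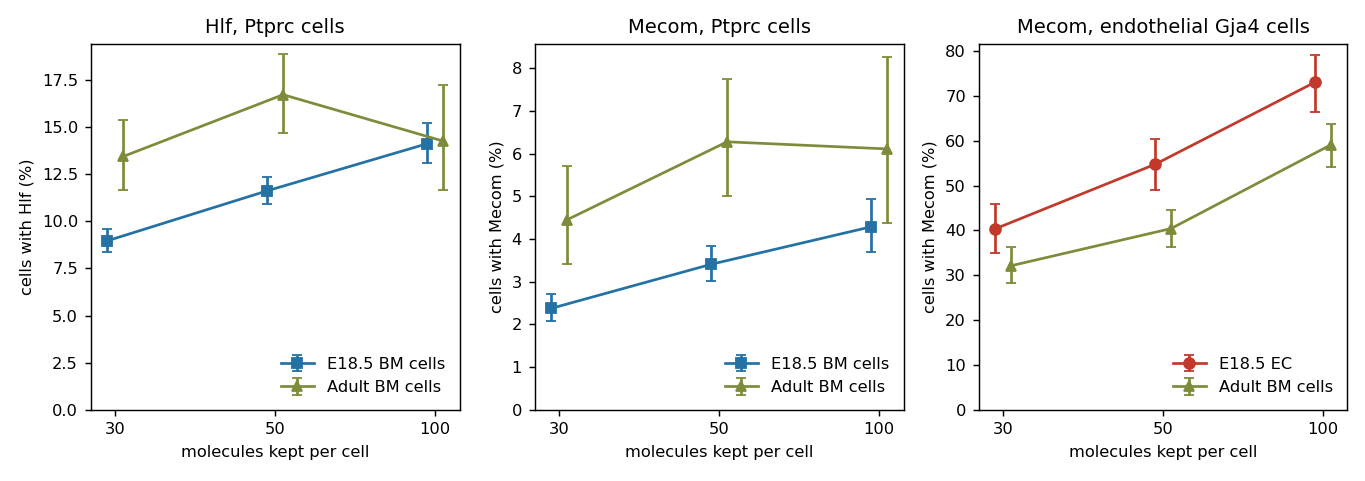
Share of cells with Hlf among Ptprc cells (left), with Mecom among Ptprc cells (middle) and with Mecom among ECs with Gja4 (right), in percent with exact 95% binomial intervals, after thinning each cell to 30, 50 or 100 molecules, for a fetal library and Adult BM cells. The Hlf shares meet at 100 molecules, at 14.1% and 14.3%, while Mecom stays lower in fetal Ptprc cells and higher in fetal ECs with Gja4 at each depth.

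Ptprc cells of the sorted library were low in Hlf beside those of fetal marrow. Hlf in its Ptprc cells was 0.138 times (0.107–0.176) the level in Ptprc cells of fetal marrow, and Mecom 0.701 times (0.544–0.891). Levels at least 2-fold lower were seen for 39.2% of 102 targets. In ECs with Gja4 the same libraries had a Mecom ratio of 1.09 (0.890–1.34), beside 22.6% of targets at least 2-fold higher.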

How the data were processed

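Per the file headers, the counts were made with the BD Targeted Rhapsody Analysis Pipeline 1.8. The authors deposited, for each cell barcode and amplicon, counts of reads and of molecules as raw values and after 2 corrections, named RSEC and DBEC, with no normalization. The DBEC-adjusted counts were used here. They kept 23.9% to 39.3% of raw Hlf and 19.7% to 34.5% of raw Mecom molecules across libraries. The labels name mm10. The strand and the doublet rate were not examined, and no doublet caller was run.

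A barcode was used as a cell if it held 20 or more molecules over 5 or more targets, which left 4038, 12844 and 7939 cells. Cells with fewer than 2 Ptprc molecules were given the class with the highest marker score, with at least 2 markers and 5 molecules. A level is the summed molecules of a class per 10000 panel molecules, with an exact Poisson interval that takes molecules as independent. Shares have exact binomial, ratios of levels exact conditional and ratios of shares log-normal intervals. A level of 0 has the limit that 3 molecules give. Thinning drew 50 molecules of each cell without replacement and left out shallower cells, 66, 1729 and 50 Ptprc cells. Targets with at least 20 molecules over both groups were compared, and those past 2-fold were counted. The steps were tested on simulated data with Python 3.11.15, numpy 2.4.6, pandas 2.3.3, scipy 1.17.1 and matplotlib 3.10.9. Start regions came from RefSeq tables and gene models from GENCODE.

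Both genes were described in every class. The rule for other genes took the 5 targets at either end of each comparison of Hlf or Mecom cells, the 3 most alike in profile and members of lists of genes. Targets of the first kind that rested on 1 cell or a few molecules are not all described, nor are all measured members of the lists. Hey1 is described in both stages beyond the rule. The genes, lists and rules were chosen with earlier results of these data known. Alternatives were other depths, gates, markers, corrections and weights.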

Additional observations from a re-analysis of the deposited data

Results flagged for a closer look

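S100a4, a calcium-binding protein gene of myeloid and other cells, moved in opposite directions with Hlf at the 2 stages. Its level in Ptprc cells with Hlf over those without was 0.163 (0.159–0.168) in fetal marrow and 3.10 (2.78–3.46) in adult marrow. It was at 300.3 against 1839 per 10000 in fetal cells and at 151 against 48.9 in adult cells. At equal depth S100a4 was in 41.9% against 49.8% of fetal and in 30.05% against 14.4% of adult cells, so the fetal difference was small by share. In adult Hlf cells 1 cell held 206 of 566 S100a4 molecules. The sorted fetal library had a level ratio of 0.203 (0.172–0.239), but 38.9% against 40.5% of its cells had S100a4 at equal depth, a ratio of 0.960 (0.535–1.72). The difference between stages was not tested. The criterion, a level ratio past 2-fold with a share ratio clear of 1 on the same side in each library, was settled after values were seen. A looser form, in which the share ratio had only to lie on the same side, also took Col22a1 and Gja4 with Hlf and Bglap2, Spp1 and Stab1 with Mecom. A form that used the share ratio alone took no gene.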

How the results depend on the processing

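Of 158 values recomputed under 22 settings, 104 lay within the interval of the value reported, 54 lay outside it, and 0 crossed from one side of 1 to the other where the interval was clear of 1. The overlap ratio stayed above 1 in 37 of 37 values (2.39–39.9) and the Gja4 ratio in 30 of 30 (3.55–38.1). The cause of the shifts was not tested.

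With at least 1 Ptprc molecule, Hlf levels in Ptprc cells were 30.2 in fetal and 26.3 in adult marrow, and Mecom levels 6.60 in the sorted library and 8.46 in adult marrow. Without Ptprc cells that had 2 or more endothelial markers, Hlf was at 5.74, 35.2 and 36.3 in the sorted, fetal and adult libraries and Mecom at 2.98 in the sorted one. With RSEC-adjusted molecules, adult Hlf was at 25.3, and Mecom at 16.3 in the sorted library and 8.56 in fetal marrow. The overlap ratios were then 2.39 (0.660–8.65), 5.77 and 3.66, the Gja4 ratios 5.34 in the sorted library and 13.2 in adult marrow, and the fetal to adult ratios 0.949 for Hlf in Ptprc cells and 1.35 for Mecom in ECs. With raw molecules, Hlf was at 33.5 and 27.7 in fetal and adult marrow, and Mecom at 9.63, 8.55 and 11.5 in the 3 libraries. The overlap ratios were 8.62, 7.33 and 4.35, the adult Gja4 ratio 17.7 and the Hlf ratio of fetal to adult 0.824.

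Thinned to 30 molecules, the fetal to adult Mecom ratio in ECs was 0.945 (0.811–1.10). Thinned to 100, it was 1.34, and the ratios in Ptprc cells were 0.989 for Hlf and 0.701 for Mecom. Without thinning the ratio in ECs was 0.840 and the overlap ratio of the sorted library 6.56. With equal weight per cell, Hlf levels were 48.3 and 66.0 and Mecom levels 10.6 and 18.9 in fetal and adult Ptprc cells, and the adult Gja4 ratio was 7.04. With at least 3 Gja4 molecules the adult ratio was 19.6, and with 2 arterial markers the ratios were 3.77, 3.55 and 10.03. With 3 endothelial markers and no class score they were 3.85 in fetal and 16.5 in adult marrow. Within ECs with Gja4 the fetal to adult Mecom ratio was 1.35. With the sorted library as the fetal one, the ratios in Ptprc cells were 0.121 for Hlf and 0.196 for Mecom, and with fetal marrow in its place the Mecom ratio in ECs was 0.894 (0.701–1.14).

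Further alternatives were chosen after seeing the data. Without Ptprc cells that held 5 or more osteoclast or granulocyte molecules, Hlf was at 7.61 and 44.3 and Mecom at 6.62 and 9.44 in the sorted library and fetal marrow. Without mixed ECs the adult Gja4 ratio was 38.1, and the fetal to adult Mecom level ratios were 1.75 in ECs with Gja4 and 9.96 in the others. The random thinnings and the removal of shared barcodes were also added then. No paired analysis was possible because each group was 1 library, and for the same reason no library could be left out. The sorted library held 6 Ptprc cells with both genes, which limits its overlap ratio, and fetal marrow held 43 ECs with Gja4.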

Other observations

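The error correction removed more of some counts than of others. Of raw Mecom molecules 19.7% were kept in the sorted library, 34.5% in fetal and 25.6% in adult marrow, while 21.2%, 41.6% and 35.9% of all panel molecules were kept. For Hlf the values were 23.9%, 39.3% and 31.5%. Each kept Mecom molecule had 156 reads in the sorted library, 42.3 in fetal and 29.4 in adult marrow, so the sorted library was the most deeply read.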
